A study of Mus musculus with 2 samples.

Results

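The 7 genes described here are keratins of the mouse tongue. They were chosen by name, with earlier results of these data known, and read in every barcode of both libraries of the series. Krt8, Krt18 and Krt19 are simple keratins, and Krt13, Krt76, Krt16 and Krt6a are stratified keratins; all 7 were listed among the 21888 genes of the deposited tables, which hold 35 keratin genes in all. The 2 libraries came from adult α-gustducin-GFP mice on the C57BL/6J background, in which GFP marks cells expressing α-gustducin, the G protein subunit encoded by Gnat3. GFP-positive cells, with dead cells removed by 7-AAD staining, were taken from epithelium of the fungiform papillae (FP, 29 barcodes) and of the circumvallate papilla (CV, 61 barcodes), captured on a BD Rhapsody system and amplified by TAS-Seq. Each papilla is 1 library, and the number of mice behind it was not stated, so no difference between the papillae has a replicate check and no p-value is given. No treatment or second genotype entered the study, and all barcodes share the GFP allele and the sort.

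Keratins form intermediate filaments by pairing a type I protein (here Krt18, Krt19, Krt13 and Krt16) with a type II protein (Krt8, Krt76 and Krt6a). Krt8 with Krt18 or Krt19 builds the filaments of single-layered epithelia, and the same genes are long-standing markers of taste bud cells. The tongue surface around the buds is a stratified squamous epithelium: Krt13 belongs to its suprabasal layers, Krt76 to keratinizing oral epithelium, and Krt6a and Krt16 to papillae, hair follicles and rapidly renewing keratinocytes. The comparison asks which of the sorted barcodes carry the one set or the other, and whether any carry both.

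The genes lie in the keratin clusters of chromosomes 11 and 15, given here in mm10 with GENCODE M21 gene bounds. Krt13 (chr11:100117327-100121566, minus strand) and Krt19 (chr11:100140810-100148665, minus strand) are 19243 bp apart although one is a stratified and the other a simple keratin, and Krt16 lies at chr11:100246091-100248902 on the minus strand. Krt8 (chr15:101996698-102004482, minus strand) and Krt18 (chr15:102028180-102032027, plus strand) point away from each other across 23697 bp. Krt76 (chr15:101884351-101892920) and Krt6a (chr15:101689910-101694307) lie on the minus strand of the same cluster. All 7 are annotated as protein coding. The RefSeq promoter table (GRCm38.p6) had an entry for 4 of the 7 members, and none for Krt19, Krt16 and Krt6a. The stretches just upstream of the annotated gene starts are shown for those 4, as they set the divergent pair of simple keratins beside 2 surface keratins. Each is written 5′ to 3′ in the direction of the gene, and capitals mark a TGANTCA match in Krt13 and a TATAAA match in Krt76.
Krt8 chr15:102004483-102004592, minus strand: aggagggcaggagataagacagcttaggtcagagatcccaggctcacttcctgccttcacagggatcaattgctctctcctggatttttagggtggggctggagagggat
Krt18 chr15:102027966-102028179, plus strand: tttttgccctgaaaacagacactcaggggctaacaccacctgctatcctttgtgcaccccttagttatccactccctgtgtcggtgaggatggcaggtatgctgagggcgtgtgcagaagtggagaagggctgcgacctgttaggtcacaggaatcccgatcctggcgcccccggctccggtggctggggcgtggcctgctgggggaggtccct
Krt13 chr11:100121567-100121816, minus strand: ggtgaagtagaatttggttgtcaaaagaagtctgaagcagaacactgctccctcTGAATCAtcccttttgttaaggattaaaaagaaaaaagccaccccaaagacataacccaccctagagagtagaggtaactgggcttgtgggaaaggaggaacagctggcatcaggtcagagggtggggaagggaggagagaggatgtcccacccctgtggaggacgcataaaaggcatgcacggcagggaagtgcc
Krt76 chr15:101892921-101893170, minus strand: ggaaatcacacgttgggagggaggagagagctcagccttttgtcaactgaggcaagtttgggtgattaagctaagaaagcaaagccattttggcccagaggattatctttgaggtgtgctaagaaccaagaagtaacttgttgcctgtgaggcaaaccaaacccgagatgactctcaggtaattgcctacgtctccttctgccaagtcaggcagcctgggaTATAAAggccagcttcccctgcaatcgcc

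Motifs were searched as letters on both strands of the RefSeq windows of 300 bases. TGANTCA, the letters of an AP-1 site, was present in 7.81% of 32851 windows and, among the 4 keratins, in Krt13. TATAAA was present in 13.6% of the windows, in Krt76 and at the RefSeq start of Krt8, outside the stretch printed above. GGGCGG was present in 35.7% of the windows and in none of the 4. The groups of simple and stratified keratins were thus not separated by any of the 3 strings, and a match is a description of letters only.

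Barcodes were divided by Gnat3 and not by keratins. A barcode counted as Gnat3-positive with more than 500 genes detected and a Gnat3 level above 0.9 on the scale ln(1 + counts per 10000), which is 146 CPM (counts scaled to a barcode total of 1000000). This gave 21 of 29 FP and 32 of 61 CV barcodes, 53 of the 90 cells that the study text mentions and that the tables hold. Total counts ranged from 193718 to 3190340 in the FP Gnat3-positive cells and from 32726 to 3447628 in the CV ones, with medians of 6480 and 5524 genes. Apart from Gnat3, which defined the cells, the type II taste cell markers on the list (Trpm5, Plcb2, Itpr3, Gng13 and Pou2f3) all reached 50 CPM in both pools of Gnat3-positive cells. No barcode number occurred in both libraries, but 6 CV barcodes bore numbers within 5 of another CV barcode, and 5 of these 6 were Gnat3-positive, with simple keratin sums of 1048 to 12930 CPM.

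The simple keratins were abundant in nearly every FP taste cell. The sum of Krt8, Krt18 and Krt19 was 42.5 CPM in the lowest of the 21 FP Gnat3-positive cells, 9771 CPM in the median cell and 14577 CPM in the highest. The second lowest cell was at 4902 CPM, so that a single barcode, FP 146804, stood apart from the other 20. That barcode had 68.0% mitochondrial counts, the highest share of the 21, and 822 CPM of Gnat3. Krt8, the type II keratin among the 3, ranged from 18.9 through 3735 to 6035 CPM. Krt18, its classical type I partner, ranged from 6.97 through 1445 to 5042 CPM. Krt19, the type I keratin without a tail domain, ranged from 9.45 through 3976 to 7521 CPM. All 3 simple keratins reached 50 CPM in 19 of the 21 cells and 1000 CPM in 17. The cell with 2 of the 3 was FP 526602, with 553 Krt8, 852 Krt19 and 2 Krt18 counts among 287030.

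In CV taste cells the same keratins covered a wider range. The sum ran from 19.7 CPM through a median of 4215 to 13651 CPM over 32 cells, and the ranges of the 2 papillae overlapped. Krt8 ran from 0 through 989 to 8120 CPM, Krt18 from 0 through 296 to 4586 CPM, and Krt19 from 0 through 1924 to 9654 CPM. No Krt18 count was found in 6 cells, and no Krt8 or no Krt19 count in 1 cell each. All 3 simple keratins reached 50 CPM in 20 of 32 cells, 2 of them in 4 cells, 1 in 6 cells and none in 2 cells. Of the 32 cells, 7 had fewer than 100000 counts; in the 25 deeper cells the median sum was 3979 CPM, with medians of 1282 CPM for Krt8, 608 CPM for Krt18 and 1825 CPM for Krt19.

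**Figure D1:**
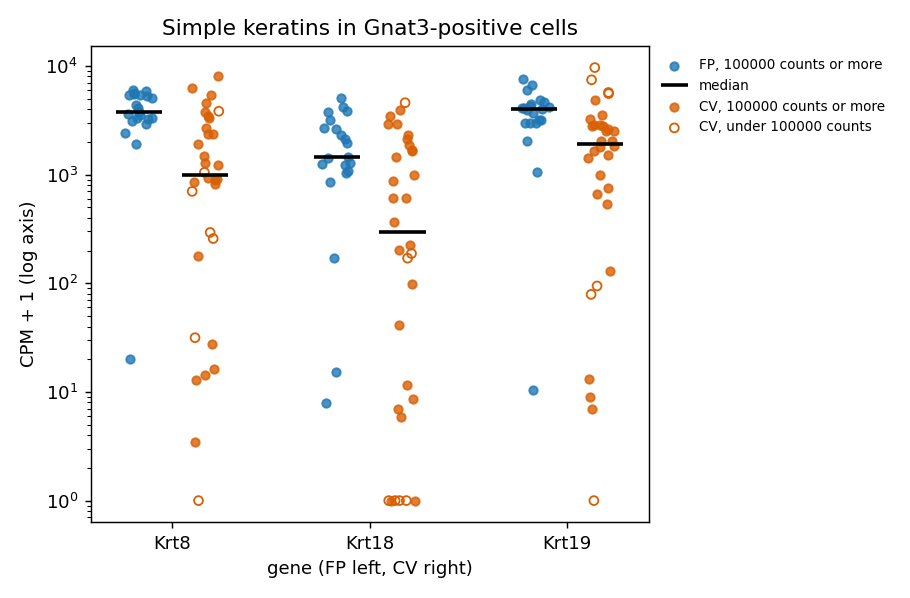
Krt8, Krt18 and Krt19 in each Gnat3-positive cell, as CPM + 1 on a log axis, with FP cells (n = 21) in blue and CV cells (n = 32) in orange. Open circles are CV cells with fewer than 100000 counts and black bars are medians; FP cells sit mostly above 1000 CPM, while CV cells spread down to 0.

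Pooled over the Gnat3-positive cells, the simple sum was 10297 CPM in FP (exact Poisson 95% interval 10255 to 10339) and 5528 CPM in CV (5502 to 5555), a ratio of 1.86 (1.85 to 1.87). Krt8 stood at 4195 CPM in FP and 2104 CPM in CV. Krt18 stood at 2361 and 1407 CPM, and Krt19 at 3741 and 2018 CPM. These intervals cover counting error only and say nothing of mice or captures. On log2(CPM + 10) the FP-over-CV differences were 0.99, 0.74 and 0.89, so 0 of 3 simple keratins passed 2-fold. Among all 10918 genes at 10 CPM or more in either pool, 17% lay 2-fold or more above CV in the FP pool and 21% the other way, with a median difference of -0.05. Gnat3 itself had 5223 CPM in the FP pool against 4372 in the CV pool.

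The make-up of the simple set was alike in the pools and variable between cells. Krt8, Krt18 and Krt19 gave 40.7%, 22.9% and 36.3% of the simple counts in FP taste cells, and 38.1%, 25.4% and 36.5% in CV taste cells. These shares are of counts and are not scaled to transcript length. Over the 20 FP cells with a sum of 1000 CPM or more, the Krt18 share ran from 0.142% through 17.4% to 43.7%, and the Krt19 share from 11.1% through 39.6% to 71.0%. Scaled per kilobase of transcript, type I keratins made up a median of 63.6% of all keratin in these FP cells and 70.9% in the 24 CV cells with the same minimum. The ranges overlapped, from 43.3% to 83.2% in the FP cells and from 0% to 100% in the CV cells. Keratins took a median of 1.05% of all counts in these FP cells and 0.689% in these CV cells.

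From cell to cell the 3 simple keratins did not always move together. The values here are rank correlations over cells of 1 library, which share depth and capture, and they are given as description. Over the 21 FP cells, Spearman's coefficient was 0.51 for Krt8 with Krt18, 0.03 for Krt8 with Krt19 and -0.12 for Krt18 with Krt19. Over the 25 CV cells with at least 100000 counts, it was 0.66, 0.82 and 0.47, and over all 32 CV cells 0.49, 0.49 and 0.35. The simple sum and Gnat3 had a coefficient of 0.62 over the 32 CV cells, 0.57 over the 25 deeper ones and 0.21 over the 21 FP cells; the difference between papillae was not tested.

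A group of CV taste cells held Gnat3 with little simple keratin. The sum was under 1000 CPM in 8 of the 32 cells, and 5 of these had at least 1000 genes detected. The 5 sums were 19.7, 167, 537, 562 and 714 CPM, with Gnat3 between 304 and 589 CPM. In the 20 CV taste cells with at least 1000 genes and a sum of 1000 CPM or more, the sums ran from 2954 through 6301 to 12930 CPM and Gnat3 from 460 through 4830 to 8532 CPM. The 2 groups did not overlap in the sum, which defined them, and overlapped narrowly in Gnat3. The low group also had a median of 41% mitochondrial counts against 11.5%. The nuclear RNAs Malat1 and Kcnq1ot1, chosen after their values were seen, had medians of 8651 and 4325 CPM in the low group against 1291 and 1520 CPM in the other. CV 498700 of the low group differed from the other 4, with 1.63% mitochondrial counts but 79.0% ribosomal RNA. The part of RNA quality in the low keratin levels was not tested. Of the 3 low cells with fewer than 1000 genes, CV 217785 and CV 593904 had 70.6% and 88.6% mitochondrial counts. The remaining one, CV 754342, held 370.5 CPM of the simple sum and 51285 counts. Keratins of all kinds took 1.23% of its counts, with 1 keratin outside the members at 1000 CPM or more.

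**Figure D2:**
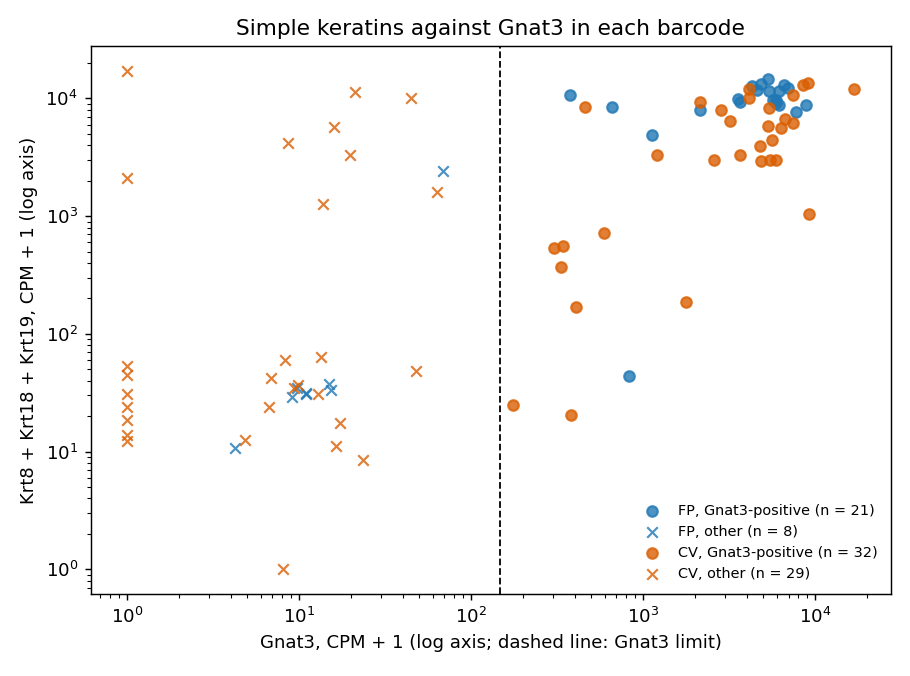
Sum of Krt8, Krt18 and Krt19 against Gnat3 in each of the 90 barcodes, both as CPM + 1 on log axes; blue is FP, orange is CV, circles are Gnat3-positive cells and crosses are the other barcodes. The dashed line is the Gnat3 limit of 146 CPM; most taste cells lie at the upper right, and a few CV cells with 304 to 589 CPM of Gnat3 lie lower.

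Some CV barcodes outside the Gnat3-positive set carried simple keratins too. The sum reached 1000 CPM in 9 of these 29, from 1270 through 4144 to 17144 CPM, with Gnat3 between 0 and 62.6 CPM. Only CV 44480 among the 9 was deep, with 4088415 counts and 9949 genes; it held 1843 CPM of Krt8, 2791 CPM of Krt18 and 1139 CPM of Krt19, beside 14.9 CPM of Gnat3. The other 8 had 534 to 928 genes, and most drew their sum from 1 gene. CV 691261 held 782 Krt19 counts and neither Krt8 nor Krt18, and CV 822450 held 521 Krt18 counts and no Krt8. In the 20 barcodes below 1000 CPM the median sum was 26.4 CPM, beside a median of 93.3% mitochondrial counts. Pooled over all 29, 5 of the 6 type II taste cell markers reached 50 CPM. Their summed level had a median of 81.9 CPM per barcode and a highest value of 11779 CPM. A barcode outside the Gnat3-positive set is therefore not shown to lack type II markers.

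The stratified keratins split the 2 libraries more sharply than the simple ones. Of the 8 FP barcodes outside the Gnat3-positive set, 7 held between 28264 and 121551 CPM of summed Krt13, Krt76, Krt16 and Krt6a, with a median of 67588 CPM. CV had 1 such barcode, at 4811 CPM. These 8 are called stratified-high, by a limit of 1000 CPM that was chosen after the values were seen; the next barcode below it was an FP taste cell at 206 CPM, so no barcode lay near the limit. The eighth FP barcode, FP 275231, had 87.3 CPM of stratified and 2396 CPM of simple keratins, with 67.4 CPM of Gnat3 and 66.0% mitochondrial counts. Its summed level of the type II taste cell markers was 4273 CPM, within the 3228 to 19004 CPM of the FP taste cells.

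**Figure D3:**
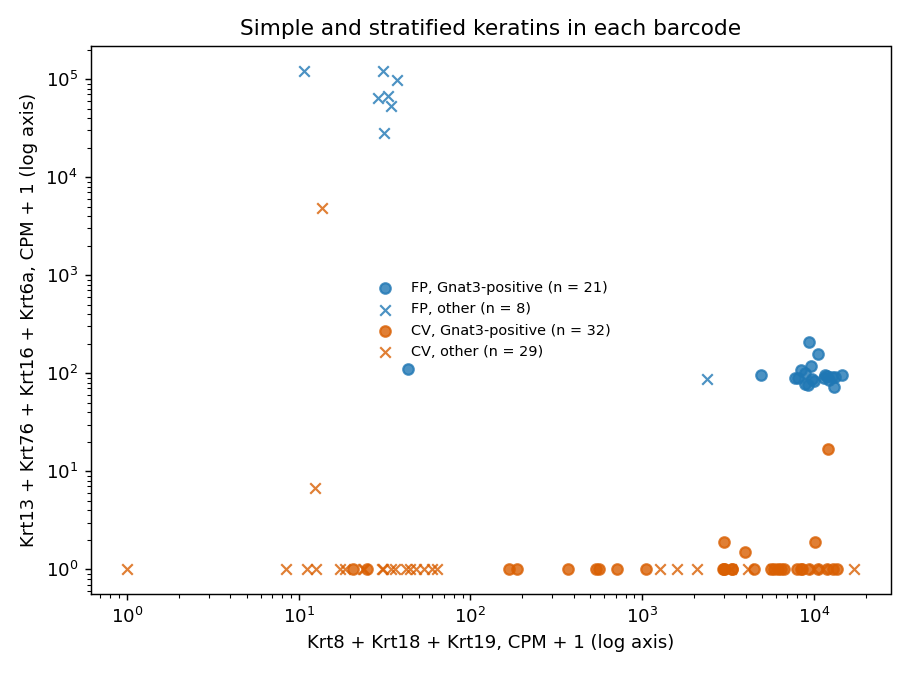
Summed stratified keratins against summed simple keratins in each of the 90 barcodes, both as CPM + 1 on log axes; blue is FP, orange is CV, circles are Gnat3-positive cells and crosses are the other barcodes. The 7 FP stratified-high barcodes stand at the upper left, FP taste cells form a band from 72.0 to 206 CPM, and nearly all CV barcodes lie at 0 on the vertical axis.

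In the 7 FP stratified-high barcodes the simple set was low in every one. The simple sum ran from 9.79 through 30.5 to 36.5 CPM, below the lowest FP taste cell at 42.5 CPM. Pooled, 361 simple counts among 11918186 gave 30.3 CPM, against 10297 CPM in FP taste cells. Krt8 was 397-fold, Krt18 299-fold and Krt19 316-fold lower, so 3 of 3 were at least 2-fold higher in the taste cells (Krt18 reached 10 CPM in the taste cells alone), as were 48.4% of the 9977 genes compared; the median gene differed by -0.93 on log2(CPM + 10). Gnat3 was 546-fold lower, at 9.57 CPM. In the other direction 18% of genes were at least 2-fold higher in the stratified-high barcodes. All 4 stratified keratins were among these, which follows from how the barcodes were chosen. Their depth was like that of the taste cells, with 201535 to 4078945 counts, 1375 to 8833 genes and at most 16.1% mitochondrial counts.

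The 7 FP barcodes differed in which stratified keratins they held. FP 664073 held 62489 CPM of Krt13, 33488 CPM of Krt76, 9844 CPM of Krt16 and 15731 CPM of Krt6a. FP 316136 held 57876, 28933, 15308 and 18830 CPM of the same genes in the same order, and FP 788614 held 41839, 32013, 11077 and 13272 CPM. These 3 alone among the 7 held all 4 members at 1000 CPM or more. They also held 15559 to 26670 CPM of Krtdap, a keratinocyte differentiation gene, and 15451 to 30156 CPM of Lor, the cornified envelope protein loricrin, which was chosen after its values were seen. They were the shallowest of the 7, with 201535, 306471 and 356319 counts and 1375 to 1944 genes.

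The other 4 barcodes each had a different keratin make-up. FP 310701 held 28037 CPM of Krt13 with 19714 CPM of Krt4, the type II partner of Krt13 in non-keratinizing mucosa, and 216 CPM of Krt6a. FP 598718 held 29449 CPM of Krt13 and 35003 CPM of Krt6a with 6009 CPM of Krt5, a basal layer keratin. FP 862048 held 56306 CPM of Krt6a and 11243 CPM of Krt16 with 27279 CPM of Krt14, the type I partner of Krt5, and 11235 CPM of Krt36, a hair-type keratin known from tongue papillae. FP 99022 held 52537 CPM of Krt6a with 59364 CPM of Krt42 and 13298 CPM of Krt75, a hair follicle keratin. Krt13 was at 32.7 and 22.8 CPM in the last pair. Krt76 was between 5.25 and 5.95 CPM in all 4, so a high Krt76 level was limited to 3 of the 7 barcodes.

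**Figure D4:**
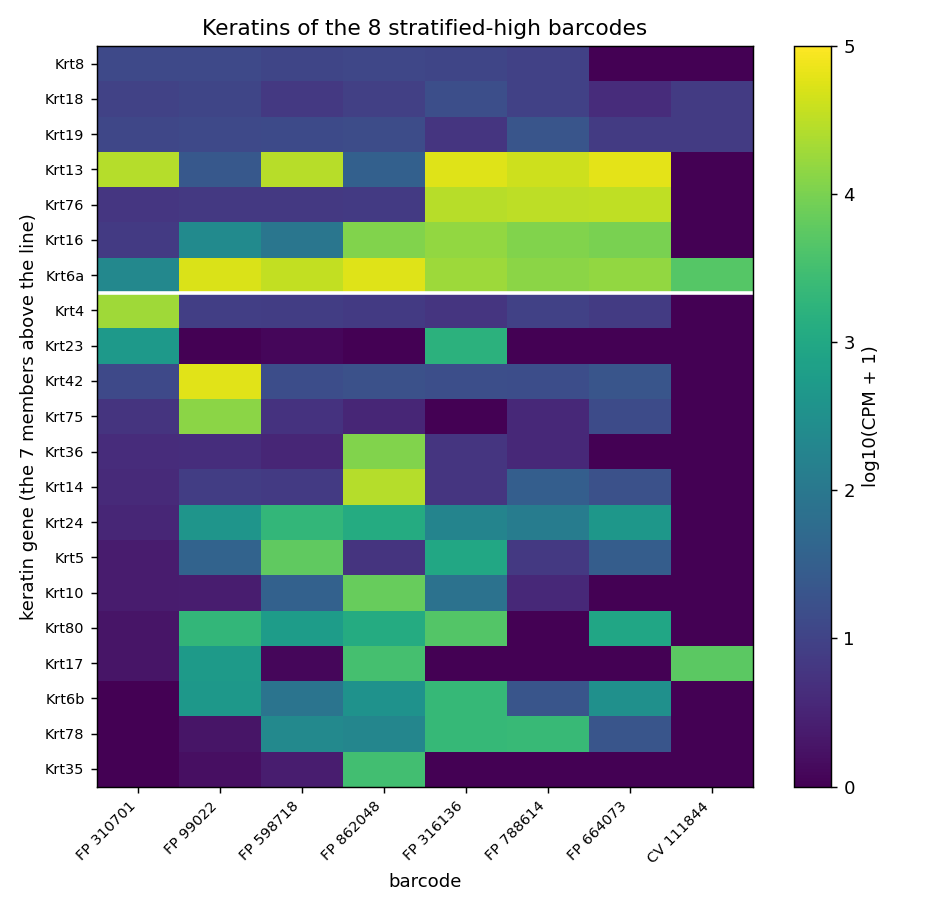
Keratin levels of the 8 stratified-high barcodes as log10(CPM + 1), with the 7 members above the white line and the other keratins that reach 1000 CPM in at least 1 of these barcodes below it. Krt8, Krt18 and Krt19 are low throughout, Krt76 is high in FP 316136, FP 788614 and FP 664073, and CV 111844 holds Krt6a and Krt17 with the other keratins shown near or at 0.

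The CV barcode CV 111844 was unlike the FP ones. It held 757 Krt6a counts and 5536 CPM of Krt17, with no count of Krt13, Krt76 or Krt16, and none of Gnat3 or Krt8. It had 157346 counts, 526 genes and 78.0% mitochondrial counts. Krt6a and Krt6b lie 9622 bp apart and are near copies, as are Krt14, Krt16, Krt17 and Krt42 in part, so their counts may be split or shared by the alignment and their levels are uncertain.

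Other keratinocyte genes went with the stratified keratins. Of the list of 14 keratinocyte markers without the 7 members, 12 were at 10 CPM or more in either FP pool. For 6 of the 12 this held in the stratified-high pool alone, which fixes their direction; the other 6 reached it in both pools, and these 6 were at least 2-fold higher in the stratified-high barcodes. Their summed level was 25947 to 77766 CPM in the 7 barcodes, 53.1 to 1730 CPM in FP taste cells and 0 to 6363 CPM in CV taste cells. Sprr3 was at 0 in each of these sets. On the list of 34 suprabasal and cornified genes, 28 were compared, 13 of them through the stratified-high pool alone. Of the 15 at 10 CPM or more in both pools, 14 were at least 2-fold higher in the stratified-high barcodes and 0 lower. The highest, Krtdap, Ly6d, Perp and Tgm3, had pooled levels of 7146, 5886, 5192 and 4886 CPM there. Basal keratinocyte genes were higher in 7 and lower in 3 of 10, but 9 of these were above the minimum in 1 pool only. All 6 type II taste cell markers were lower, of which Gnat3 was fixed by the split and 3 were below the minimum in the stratified-high pool, with a summed level of 39.3 to 122 CPM in the 7 barcodes. The 4 immune markers were at 0 in the 7 barcodes, and of the 3 fibroblast markers Dcn reached 473 CPM in the pool. The fibroblast sum was 1383 CPM in FP 598718 and at most 6.53 CPM in the other 6 barcodes. These lists were written with earlier results known, and the same 18% and 48.4% of all genes apply.

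FP taste cells showed the stratified keratins at a low level. The stratified sum was 72.0 CPM in the lowest of 21 cells, 91.5 CPM in the median and 206 CPM in the highest, and it reached 50 CPM in all 21. Krt13 ran from 15.2 through 31.7 to 82.6 CPM and Krt6a from 33.8 through 49.3 to 108 CPM. Krt16 ran from 0 through 5.80 to 14.3 CPM and Krt76 from 0 through 5.18 to 12.6 CPM, with 1 cell at 0 for each. FP 146804, with 9 simple keratin counts in all, had 109 CPM and so lay in the same band. The stratified counts followed total counts closely over the 21 cells, with a Spearman coefficient of 0.93, a relation both share with depth. As a level in CPM, the stratified sum had a coefficient of -0.49 with total counts, -0.49 with Gnat3 and -0.18 with the simple sum, so it was higher in shallower cells.

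Set against the stratified-high barcodes of the same library, the level in FP taste cells was 0.174% for Krt13, 0.223% for Krt76, 0.247% for Krt16 and 0.137% for Krt6a. Other keratins gave similar shares: Krt42 0.185%, Krt14 0.157%, Krt4 0.193%, Krt75 0.136% and Krt36 0.2%. Of the 14 other keratins with at least 1000 counts in the stratified-high pool, 9 were under 1%. Krt13, Krt76, Krt16 and Krt6a made up 35.5%, 5.58%, 6.73% and 52.2% of the stratified counts in FP taste cells, and 32%, 3.93%, 4.29% and 59.8% in the stratified-high barcodes. The order of the 4 was the same, while the exact intervals of each share did not overlap between the pools. Those intervals take every count as independent, and whether counts are collapsed by molecular identifier is not known. The stratified-high shares also pool barcodes of unlike depth and keratin make-up, so the differences are given as description. In the other direction, the stratified-high barcodes held 0.252%, 0.334% and 0.316% of the taste cell level of Krt8, Krt18 and Krt19. Krt8, Krt18 and Krt19 in the stratified-high barcodes made up 34.9%, 26% and 39.1% of the 361 simple counts, beside 40.7%, 22.9% and 36.3% in FP taste cells. Those 361 counts left the Krt8 share uncertain between 30% and 40.1% (Clopper-Pearson). Free RNA and reads assigned to a wrong barcode were not tested as the source of these low levels.

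Some epithelial genes did not share this ratio. Dsp, the desmosome plaque protein desmoplakin, was at 432 CPM in FP taste cells and 2868 CPM in the stratified-high pool, a share of 15.1%. The barcodes of that pool differed in Dsp. FP 316136, FP 788614 and FP 664073 held 99.2, 320 and 372 CPM, below the taste cell pool. The others held 1262 to 5089 CPM. Jup, plakoglobin of the same plaque, had a share of 22.3%, and Dsc2, a desmosomal cadherin, had 47.4%. Epcam, a cell adhesion protein of simple epithelia, was at 886 CPM in FP taste cells against 109 CPM in the stratified-high pool. Most of the latter came from FP 99022, with 396 CPM. The other stratified-high FP barcodes held at most 6.53 CPM of Epcam. Among the keratins, Krt10 had a share of 6.95%, with 69.6 CPM in FP and 55.2 CPM in CV taste cells. It was not the highest share, which was 15.0% among the 14 other keratins. Krt10 in the stratified-high pool came mostly from FP 862048, with 7011 CPM. The other stratified-high FP barcodes held at most 74.4 CPM of Krt10. Krt7, a simple-type keratin, was at 243 CPM in FP and 233 CPM in CV taste cells and at 0.671 CPM in the stratified-high pool. Krt7 reached 50 CPM in 10 of 21 FP and 9 of 32 CV taste cells, so it was present in fewer of them than Krt8, at 20 and 25.

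**Figure D5:**
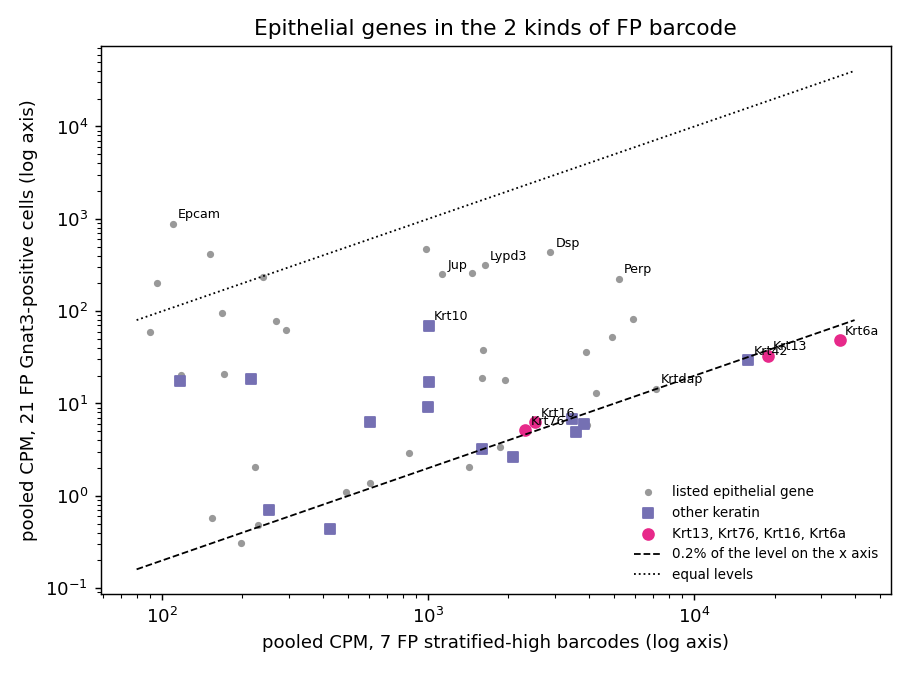
Pooled level of epithelial genes in the 21 FP Gnat3-positive cells against the 7 FP stratified-high barcodes, in CPM on log axes; Krt13, Krt76, Krt16 and Krt6a are large pink circles, other keratins purple squares and listed epithelial genes grey points. The 4 stratified keratins lie along the dashed line of 0.2%, between 0.137% and 0.247%, while Dsp, Jup, Krt10 and Epcam lie well above it.

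CV taste cells had nearly no counts of Krt13, Krt76, Krt16 and Krt6a. There were 5 counts among 29535917: 2 of Krt13, 3 of Krt6a, and none of Krt76 or Krt16. The exact Poisson upper limit was 0.125 CPM for each of Krt76 and Krt16. The 5 counts lay in 4 of the 32 cells, and the highest, 15.9 CPM in CV 171027, was a single count. The pooled stratified sum was 92.5 CPM in FP and 0.169 CPM in CV taste cells, a ratio of 546 (234 to 1685). Krt13 had a ratio of 484 (134 to 4008) and Krt6a of 476 (162 to 2310). Krt76 and Krt16 had no CV count: the exact lower limits of their ratios were 40.7 and 49.2, and against a floor of 3 counts over the CV pool they were at least 50.9-fold and 61.3-fold higher in FP. Krt13 and Krt6a were the members of the set that reached the 10 CPM minimum, and did so in the FP pool alone, so that their direction was fixed by the filter and their count says nothing beside the 17% of all genes. FP held 7 stratified-high barcodes and CV 1, so papilla, library and the stratified-high barcodes sorted with it cannot be told apart in this difference.

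The other genes listed for these epithelia were compared between FP and CV taste cells in the same way. Of genes at large, 17% were past 2-fold towards FP and 21% towards CV. Simple epithelium genes were at least 2-fold higher in FP in 5 and in CV in 2 of the 18 compared. Of the 14 that reached 10 CPM in both pools, 4 were past 2-fold towards FP and 0 towards CV. Dsc2 was at 465 CPM in FP and 150 CPM in CV, while Epcam was at 886 and 1213 CPM. Keratin binding and desmosome genes split 1 and 1 of 8, with Dsp at 432 and 468 CPM. Of the 7 that reached 10 CPM in both pools, 1 was past 2-fold towards FP and 0 towards CV. Suprabasal genes were past 2-fold towards FP in 5 and towards CV in 1 of 15, and other keratins in 3 and 1 of 10. For 7 of those 15 and 5 of those 10 the filter was met in FP alone, which fixes their direction. Of the 8 suprabasal genes that met it in both pools, 0 were past 2-fold towards FP and 1 towards CV. That gene was Tgm3, at 51.9 CPM in FP and 254 CPM in CV. Of the 4 other keratins that met it in both pools, 0 were past 2-fold.

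The genes whose level most resembled the simple sum were ranked within each papilla. Over the 29 FP barcodes and 3456 genes, the 8 with the highest Spearman coefficient were Clmn (0.80), Psip1 (0.80), Dsg2 (0.79), Epcam (0.78), Cadps2 (0.77), Calm2 (0.76), Upp1 (0.76) and Gnb3 (0.76), beside a median of 0.13 for all genes. Gnat3 ranked 32 with 0.69. Over the 56 CV barcodes with more than 500 genes and 2509 genes, the 8 were Prnp (0.73), Tuba1a (0.72), Espn (0.71), Ptma (0.69), Anxa4 (0.68), Basp1 (0.67), Cited2 (0.65) and H3f3a (0.63), beside a median of 0.32, and Gnat3 ranked 13 with 0.61. No gene stood among the first 8 of both papillae, while Gnb3, a taste G protein subunit gene, ranked 8 in FP and 29 in CV, and Trpm5, the taste cation channel, 27 and 53. For the stratified sum in FP they were Ly6g6c (0.80), Sfn (0.78), Aqp3 (0.75), Elovl4 (0.74), Krtdap (0.74), Dmkn (0.74), Hopx (0.73) and Calm4 (0.73), beside a median of -0.15. Over the same 29 FP barcodes the simple and stratified sums had a coefficient of -0.61, and the stratified sum and Gnat3 one of -0.72. The 7 stratified-high barcodes are part of these 29 points, and all genes of a barcode share its depth.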

How the data were processed

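The 7 members and all gene lists were chosen with earlier results of these data known. The deposited values are raw counts per gene and barcode, whole numbers with different totals per barcode; per the labels' protocols the authors aligned reads to mouse reference RNA, filtered barcodes with DropletUtils and applied the platform's error correction. The submitters' processing notes name cutadapt 2.10, Bowtie2 2.3.4.1, Seurat 2.3.4 and mm10. Whether counts are collapsed by molecular identifier is not given in the sources used here. All 90 barcodes were used, with no doublet caller and no limit on mitochondrial share; the study's own mitochondrial, ribosomal and log-scale limits could not be read with certainty, so the Gnat3 limit was taken on the natural log scale. Counts were divided by the barcode's total (CPM). Intervals are exact (Poisson, conditional binomial for ratios, Clopper-Pearson for shares of counts) at 95%. With 1 library per papilla no test was run. Pools were compared on log2(CPM + 10), over genes at 10 CPM or more in either pool, with 2-fold as the limit. Besides the members and Gnat3, named genes were up to 12 other keratins, up to 4 per list (at 50 CPM or more) and the 8 genes most like each sum. Alternatives varied the level called present, pseudocount, scaling, filters and barcodes, and the computation was tested on simulated counts. Python 3.11.15, pandas 2.3.3 and scipy 1.17.1 were used.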

Additional observations from a re-analysis of the deposited data

How the results depend on the processing

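The share of barcodes with a summed level of 50 CPM or more was 95.2% (simple) and 100% (stratified) in FP taste cells, 93.8% and 0% in CV taste cells, 12.5% and 100% in other FP barcodes, and 41.4% and 3.45% in other CV barcodes. Each setting was applied to several of these values: 24 values moved beyond their counting interval or by the limit set for counts, 73 did not, and no ratio changed sign. With 10 CPM the simple share was 100% in both sets of taste cells, 87.5% in other FP and 93.1% in other CV barcodes. With 200 CPM the stratified share of FP taste cells was 4.76%. With 1 count the simple share was 100% in both sets of taste cells and in other FP barcodes, 96.6% in other CV barcodes, and the stratified share of CV taste cells 12.5%. Without mitochondrial and ribosomal RNA in the total, the simple share was 100% in FP taste cells and 96.6% in other CV barcodes. With more than 500 genes and at most 60% mitochondrial counts, the simple share was 100% in FP taste cells, 0% in other FP and 100% in other CV barcodes, and the stratified share of other CV barcodes 0%, from fewer barcodes. With Gnat3 at 1000 CPM the simple share was 100% in FP and in CV taste cells. The FP-over-CV log2 ratio of the simple sum, 0.90, was 0.88 with Gnat3 at 1000 CPM, 0.91 from the mean CPM per cell, 0.88 with the top cell of both libraries left out, and 0.94 without barcodes of adjoining number, a setting chosen after seeing the data. The stratified ratio, 3.33, was 6.32 with a pseudocount of 1 CPM. The share of genes past 2-fold, 38%, was 20.1% without the filter on low values. The cause of these changes was not tested, apart from the levels and barcodes each setting itself changes. Thinning to 50000 counts left out 8 CV barcodes, 2 of them Gnat3-positive. No paired analysis was possible because each papilla is 1 library.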
